A study of Homo sapiens with 12 samples.

Results

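Steady-state RNA was compared between MOLT4 cells treated with NVP-2 and MOLT4 cells given the vehicle DMSO, both for 6 h. MOLT4 is an established human line of T-cell acute lymphoblastic leukaemia, a cancer of immature T cells. NVP-2, an inhibitor of the kinase CDK9, was given at 250 nM, and the vehicle at 0.1%. The comparison takes 6 of the 12 libraries of the series, 3 of each group. The other 6 come from the same line treated for the same time at the same dose with SNS-032, a CDK inhibitor with several targets, or with THAL-SNS-032, a degrader of CDK9 derived from it, 3 libraries each. The libraries were chosen by their treatment alone. The labels do not say whether the replicates were separate cultures, so p-values measure the spread between libraries only.

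CDK9 and a T-type cyclin form the elongation kinase P-TEFb. P-TEFb phosphorylates RNA polymerase II and the factors that hold it paused near the start of a gene, which lets the polymerase go on to make a full-length transcript. A pool of P-TEFb is kept inactive by the 7SK RNA with the HEXIM and MEPCE proteins, and the super elongation complex carries the active kinase to genes. When elongation is blocked, an mRNA falls at the pace of its own decay, so short-lived messages such as MYC and MCL1 are classic early losses. T-cell leukaemias of this kind rely on MYC, on MCL1 and on a circuit of transcription factors around TAL1, GATA3 and MYB.

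Values are FPKM, fragments normalised to transcript length and library size, on a scale the authors set across libraries, and levels of different genes can be compared on it because it is per length. RNA spike-ins had been added at lysis. Their median log2 ratios to DMSO, over 31 entries of 1 FPKM or more, lay between -0.03 and 0.03 in the 6 libraries. How the authors used the spike-ins is not given here. If they set the scale, such values follow from it and are no check of it. Of 23619 genes, 11379 averaged at least 1 FPKM across the 12 libraries and were tested by limma on log2(FPKM + 1). A fold change on that scale understates the change of low genes. Without counts in the table, the depth of each library is unknown. Of 12 T-cell marker genes all 12 reached 1 FPKM in DMSO, with a sum of 4513 to 5669 FPKM, against 721 to 868 with NVP-2. Of 5 myeloid and 5 erythroid markers none reached it, and 2 of 5 B-cell and 1 of 7 epithelial and stromal markers did.

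Almost every measured transcript was lower after 6 h of NVP-2. The median gene stood at 11.2%, 13.1% and 12.1% of its DMSO level in the 3 NVP-2 libraries and at 94.1%, 99.1% and 107% in the 3 DMSO libraries. The groups lay far apart on this measure, with a mean difference of -3.05 on the log2 scale. An exact two-sided permutation test gave p = 0.1, the smallest that 3 against 3 allows. Genes of 1 FPKM or more numbered 11972 to 12189 in DMSO and 8237 to 8693 with NVP-2. Genes of 100 FPKM or more numbered 1878 to 2215 in DMSO and 340 to 392 with NVP-2.

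**Figure D1:**
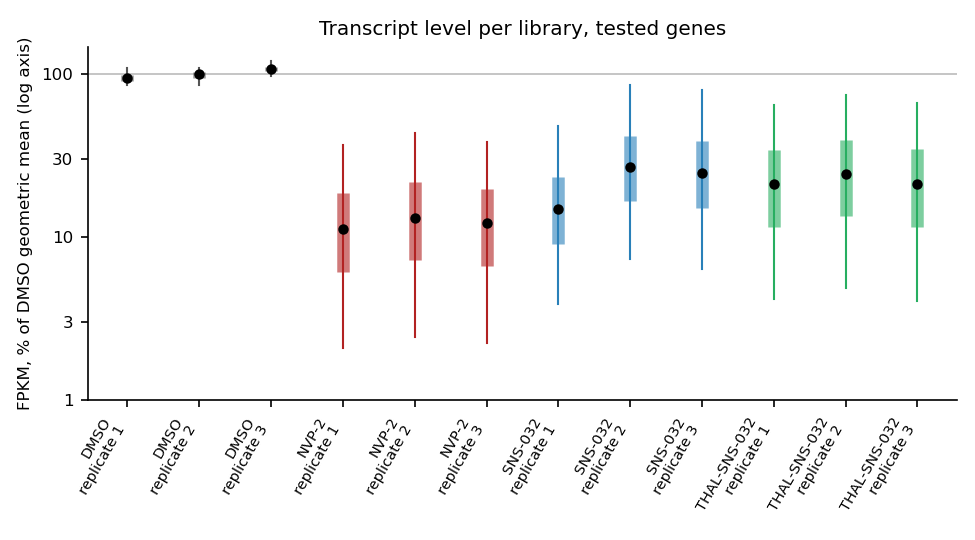
FPKM of the tested genes in each of the 12 libraries as a percent of the DMSO geometric mean, on a log axis. The dot is the median gene, the thick bar runs from the lower to the upper quartile of the genes and the thin line the 5th to 95th percentile. The 3 NVP-2 medians (11.2% to 13.1%) lie under the medians of all other libraries.

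By limma with Benjamini-Hochberg adjustment, 11048 of the 11379 genes (97.1%) were called lower and 51 (0.448%) higher at an adjusted p under 0.05, and 280 were not called. Of the genes called lower, 10749 were lower by at least 2-fold. All 3 NVP-2 libraries lay below all 3 DMSO libraries for 11130 genes, above them for 49, and overlapped them for 200. A call of lower is therefore the background state here, and what sets a gene apart is how much of it was left. Because fewer cells of a kind and less RNA per cell cannot be told apart in bulk samples, the levels describe the RNA recovered, as scaled by the authors.

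The level left spanned more than 2 orders of magnitude. It was under 1% of DMSO for 152 genes, 1% to 2% for 314, 2% to 5% for 1479, 5% to 10% for 2686, 10% to 25% for 4959, 25% to 50% for 1474 and 50% to 100% for 182, and 133 genes were at or above their DMSO level. Among the tested genes the level left was lowest for those of middling abundance, but the filter shapes the low end. A gene of 1 to 3 FPKM in DMSO passed a mean of 1 FPKM over 12 libraries only if drug-treated libraries kept enough. Deep falls in that class were thus left out, which raises its median. The median was 26.7% for genes of 1 to 3 FPKM in DMSO, 12.8% at 3 to 10 FPKM, 10.4% at 30 to 100 FPKM, 16.9% at 300 to 1000 FPKM and 25.5% for the 202 genes at or above 1000 FPKM. Of 8653 genes with at least 10 FPKM in DMSO, 83 were under 0.2 FPKM in every NVP-2 library, and 37 kept 50% or more.

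To show which genes kept less or more than the rest, each library was also scaled so that its median ratio to DMSO was 1. On this median-centred scale 4842 genes (42.6%) were called lower and 4816 (42.3%) higher, which here means below or above the median gene. The split moves with the scaling. With FPKM scaled to equal library medians 3710 were lower and 6021 higher. With the median of log2(FPKM + 1) of each library subtracted, 3198 were lower and 6788 higher, and the median of all genes moved by 0.42. Lists are therefore given by their distance from the median gene, and a list is said to lie above or below it where all 4 scalings gave the same sign.

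**Figure D2:**
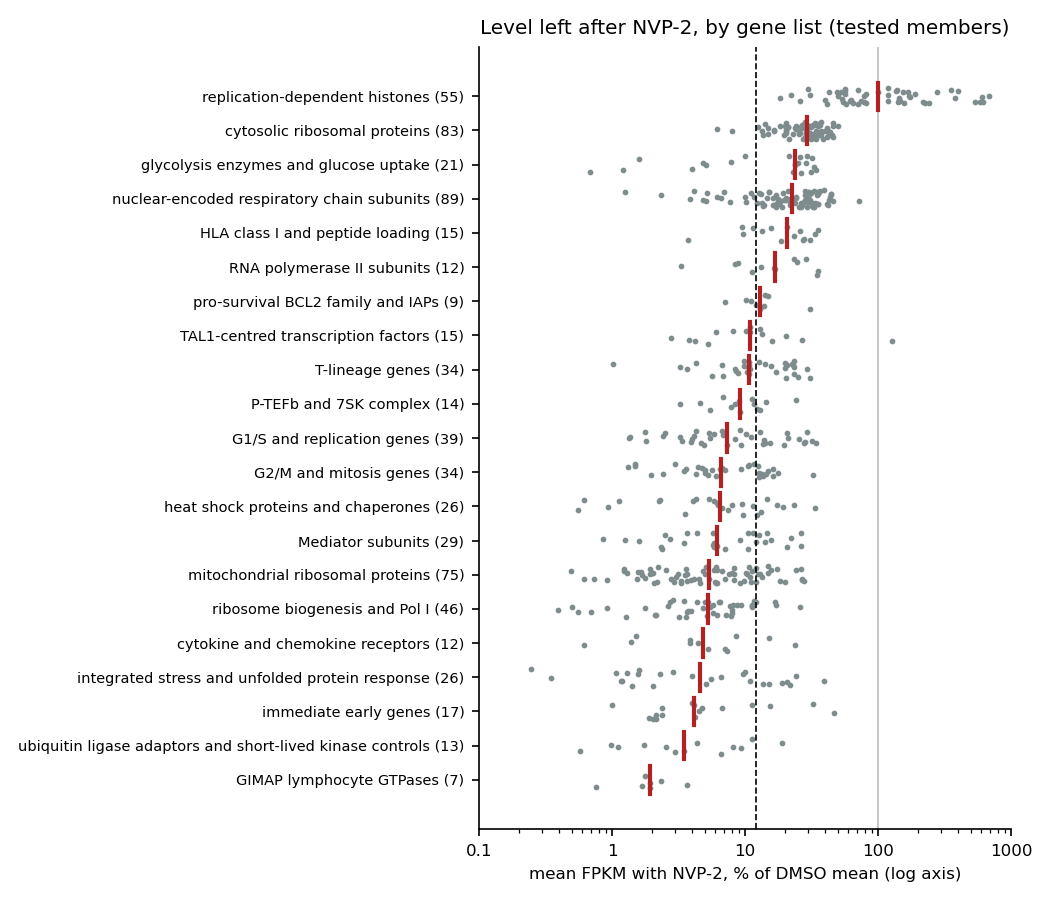
Mean FPKM with NVP-2 as a percent of the DMSO mean (log axis) for the tested members of 21 gene lists, 1 dot a gene, with the number of tested members in brackets. Red bars are list medians, the dashed line is the median of all tested genes (12.1%) and the grey line marks 100%. The GIMAP genes lie lowest (1.93%), and the cytosolic ribosomal protein genes (29.2%) and replication-dependent histone genes (100.3%) highest.

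The transcript of the drug's own target fell with the rest. CDK9 measured 31.6, 37.0 and 39.7 FPKM in the DMSO libraries and 3.80, 4.50 and 4.36 with NVP-2. The groups did not overlap, 11.7% was left, and the limma difference was -2.83 ± 0.19 (SE, log2, adjusted p = 8.9e-10). On the median-centred scale it was -0.05 (limma adjusted p = 0.4). Its sign changed with the scaling, which also moved the median of all genes. The level of an mRNA says nothing of the activity of an inhibited kinase. Its partner cyclin T1 was lost further. CCNT1 measured 26.4, 25.5 and 28.4 FPKM in DMSO and 0.788, 0.987 and 0.816 with NVP-2, which leaves 3.22%, whereas the alternative partner CCNT2 kept 13.1%.

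All 14 tested genes of P-TEFb, the 7SK particle and the super elongation complex were called lower, and their median level left was 9.10%. HEXIM1, the inhibitor that holds P-TEFb inactive, measured 44.8, 46.7 and 52.1 FPKM in DMSO and 6.46, 7.45 and 6.77 with NVP-2, or 14.4%. MEPCE, the enzyme that caps 7SK RNA, kept 5.46%.

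Among the 16 pausing and elongation factors, all called lower, LEO1 and SUPT5H stood at the ends. LEO1 of the PAF complex measured 71.7, 78.8 and 81.8 FPKM in DMSO and 0.889, 0.946 and 0.889 with NVP-2. That leaves 1.17%, against 21.7% for SUPT5H, the large subunit of the DSIF factor that P-TEFb phosphorylates, which went from 97.6 ± 11.6 to 21.2 ± 1.78 FPKM (SD, n = 3). The 13 other genes of transcriptional CDKs and their cyclins were all called lower too. CDK7, the kinase of TFIIH that acts upstream of CDK9, measured 42.7, 43.1 and 44.6 FPKM in DMSO and 0.578, 0.639 and 0.719 with NVP-2, so 1.49% was left. CCNL2, a cyclin of splicing-linked CDKs, kept 36.3%.

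RNA polymerase II itself was a mixed case. All 12 subunit genes were called lower, with a median of 16.8% left. The largest subunit, POLR2A, went from 41.2, 50.7 and 54.8 to 7.91, 8.86 and 8.02 FPKM (16.9%), while POLR2D kept 3.29% and the small subunit POLR2L 35.5%. Of the 27 general transcription factors, GTF2B, which bridges the TATA-binding protein and the polymerase, was lost furthest. GTF2B measured 73.7, 74.9 and 86.6 FPKM in DMSO and 0.372, 0.472 and 0.435 with NVP-2, or 0.543%. The 29 subunits of Mediator, the bridge between activators and the polymerase, had a median of 6.12% left and lay below the median gene under all 4 scalings (-0.97 on the log2 median-centred scale). MED18 kept the least of them, 0.851%. MED12 of the kinase module kept 26.2%, close to the highest value of the list, 26.3%.

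**Figure D3:**
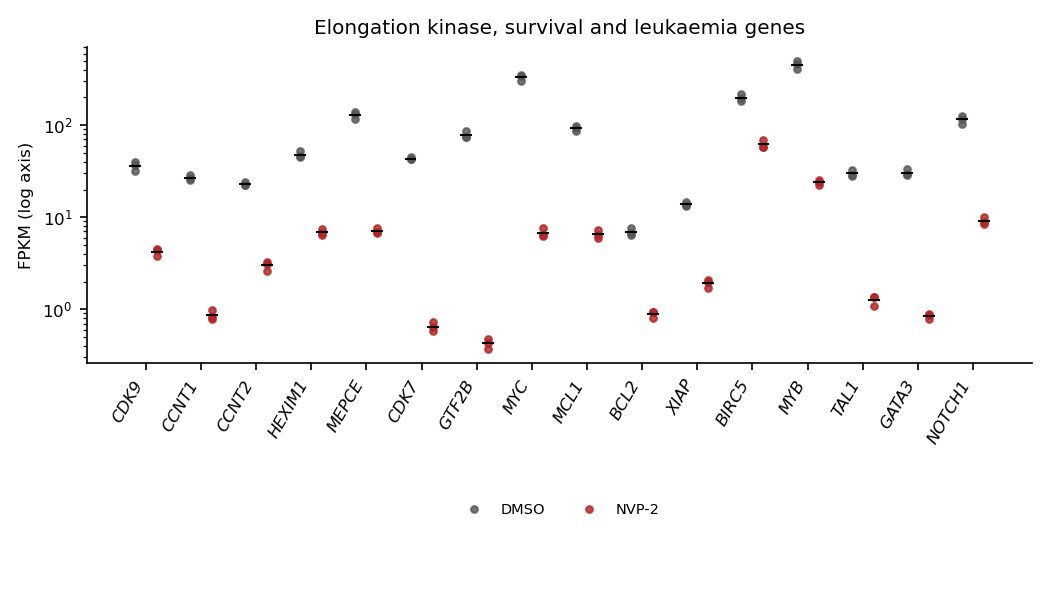
FPKM (log axis) of 16 elongation, survival and leukaemia genes in the 3 DMSO (grey) and 3 NVP-2 (red) libraries, with group means as black bars. The groups do not overlap for any of them. MYC went from a mean of 331 to 6.73 FPKM and BIRC5 from 199 to 61.8.

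MYC, the growth regulator with a short-lived message, fell further than most genes. It measured 299.7, 340.2 and 352 FPKM in DMSO and 6.21, 7.57 and 6.40 with NVP-2. The replicates of each group lay close together, 2.04% was left, and the difference was -5.42 ± 0.20 (SE, log2, limma adjusted p = 5.6e-12). Within the MYC network, where all 10 tested genes were called lower, MYC was the member with the least left. MXD1, which opposes MYC at its sites, kept 35.2%.

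Immediate early genes, whose messages turn over within minutes to hours in most cells, had a median of 4.15% left over 17 tested members. They lay below the median gene under all 4 scalings (-1.42, log2, median-centred). ZFP36L2, which itself targets AU-rich messages for decay, measured 214, 254 and 262 FPKM in DMSO and 5.64, 6.24 and 5.52 with NVP-2 (2.38%). KLF6, a growth-restraining factor, kept the most of this list. It measured 11.1, 10.3 and 11.7 FPKM in DMSO and 4.84, 5.59 and 4.99 with NVP-2, which leaves 46.7%. Of the 13 ubiquitin ligase adaptors and short-lived kinase controls, with a median of 3.47% left, the survival kinase PIM3 went from 39.9, 47.6 and 42.5 to 0.215, 0.241 and 0.287 FPKM (0.572%). SKP2, the substrate receptor for the inhibitor p27, kept 11.3%.

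The survival genes fell unequally. MCL1, which blocks BAX and BAK at mitochondria, measured 85.7, 93.9 and 98.9 FPKM in DMSO and 6.02, 7.24 and 6.43 with NVP-2. That leaves 7.07% (limma difference -3.63 ± 0.20, SE, log2, adjusted p = 1.2e-10), the least among the 9 tested survival genes. BCL2 kept 12.9% and XIAP, an inhibitor of caspases, 13.9%, both near the median gene. BIRC5, or survivin, measured 182, 199 and 216 FPKM in DMSO and 58.6, 68.7 and 58.2 with NVP-2 and kept 31.0%. Genes on the side of death fell as well, all 10 of the BCL2 family and all 14 death receptor, caspase and apoptosome genes. PMAIP1, which encodes the MCL1 antagonist NOXA, kept 4.19%. FADD, the adaptor of the death receptors, went from 35.3, 39.1 and 42.8 to 0.219, 0.294 and 0.318 FPKM (0.709%).

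The 15 tested factors of the TAL1 circuit kept a median of 10.9%, near that of all genes, and 6 were called above and 8 below the median gene. MYB, TAL1 and GATA3 were among the lower ones. MYB measured 411, 462 and 493 FPKM in DMSO and 22.3, 25.3 and 24.0 with NVP-2 (5.24%). TAL1, the oncogenic factor that gives the circuit its name, measured 28.6, 28.2 and 32.8 and 1.08, 1.35 and 1.37 FPKM (4.24%), and its partner GATA3 28.9, 29.2 and 33.3 and 0.871, 0.794 and 0.896 FPKM (2.80%). No NVP-2 library came near a DMSO library for any of them. On the deposited scale 14 of the 15 factors were called lower. HHEX was the other and had low values, 1.45, 1.77 and 1.77 FPKM in DMSO and 1.82, 2.42 and 2.16 with NVP-2 (adjusted p = 0.21).

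NOTCH1, the receptor mutated in many T-cell leukaemias, measured 102, 118 and 127 FPKM in DMSO and 8.90, 10.1 and 8.42 with NVP-2 (7.91%). Its target HES1, a repressor with a very short-lived message, measured 52.7, 61.2 and 56.3 FPKM in DMSO and 0.191, 0.327 and 0.338 with NVP-2, or 0.503%. HES4, another of the 11 tested pathway genes, all called lower, was low throughout and kept 31.3%.

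Messages for T-cell surface proteins parted widely. All 34 tested T-lineage genes were called lower, with a median of 10.8% left. CD3D, a chain of the T-cell receptor complex, measured 1726, 2254 and 2154 FPKM in DMSO and 270.2, 334 and 261 with NVP-2 (14.1%). CD2, an adhesion receptor, measured 135, 149.5 and 155 and 1.48, 1.54 and 1.45 FPKM, and only 1.02% was left. So genes of the same surface and the same lineage differed by more than 10-fold in what remained.

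Receptors for cytokines and chemokines had a median of 4.85% left over 12 genes and lay below the median gene under all 4 scalings (-1.21, log2, median-centred). CXCR4, the homing receptor for CXCL12, measured 427, 506 and 519 FPKM in DMSO and 6.46, 7.44 and 6.24 with NVP-2 (1.39%). IL2RG, the chain shared by several interleukin receptors, had almost the same DMSO level, 422, 518 and 520.1 FPKM, but measured 108, 129 and 110.0 with NVP-2 (23.7%).

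The GIMAP genes, a cluster of GTPases that keep lymphocytes alive, kept the least of all lists by the median. All 7 were called lower on both scales, the median level left was 1.93%, and the median-centred median was -2.57 on the log2 scale. GIMAP7 measured 208, 236 and 258 FPKM in DMSO and 1.59, 1.89 and 1.82 with NVP-2 (0.755%; limma difference -6.40 ± 0.20, SE, log2, adjusted p = 3.8e-12). GIMAP8, the least reduced, went from 7.02, 6.38 and 7.24 to 0.175, 0.278 and 0.302 FPKM (3.66%). The 7 genes are neighbours in the genome and are not independent examples.

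Stress-response genes, which cells often raise under drug treatment, were all lower here. Of the 26 tested genes of the integrated stress and unfolded protein responses, 26 were called lower, with a median of 4.55% left. DDIT4, an inhibitor of mTOR signalling, had the largest fall on the log2 scale among genes other than short RNAs and unnamed loci. It measured 195, 223 and 248 FPKM in DMSO and 0.495, 0.652 and 0.491 with NVP-2, which leaves 0.246% (limma difference -7.17 ± 0.23, SE, log2, adjusted p = 3.8e-12). XBP1, the factor spliced when the endoplasmic reticulum is stressed, measured 126, 147 and 147 and 0.432, 0.621 and 0.415 FPKM (0.350%). ASNS, the amino acid enzyme that ATF4 induces, kept 39.5% of 20.9 ± 2.54 FPKM.

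Heat shock genes and chaperones, 26 of 26 called lower, had 6.53% left at the median and lay below the median gene under all 4 scalings. HSPA8, the constitutive HSC70 chaperone and 1 of the most abundant messages in the cells, measured 3562, 4472 and 4451 FPKM in DMSO and 37.1, 42.8 and 36.8 with NVP-2, or 0.935%. Its co-chaperone DNAJB1 went from 155, 177 and 186 to 0.979, 1.11 and 1.08 FPKM (0.612%). HSPB1, a small heat shock protein, kept 33.6%. Genes of the oxidative stress and metal response lay on the other side, above the median gene under all 4 scalings, although all 17 were called lower on the deposited scale. FTL, the ferritin light chain, kept 38.0% of 2321 ± 331 FPKM (SD, n = 3), while KEAP1, the sensor of this pathway, went from 60.6, 64.1 and 66.9 to 0.573, 0.801 and 0.793 FPKM (1.13%).

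Cell-cycle genes were all lower, and those of DNA replication and mitosis lay below the median gene under all 4 scalings. The 39 G1/S and replication genes had 7.35% left and the 34 G2/M and mitosis genes 6.65%. PCNA, the sliding clamp of DNA polymerase, measured 1529.8, 1806 and 1834 FPKM in DMSO and 29.4, 33.3 and 28.8 with NVP-2 (1.77%). CKS2, a small partner of cell-cycle CDKs, measured 825, 905 and 938 and 10.1, 13.3 and 11.99 FPKM (1.33%). CDK6, the G1 kinase that T cells favour, kept 12.7%, close to the median gene. CDKN1A, the p53 target p21, was near the filter in DMSO at 1.36, 1.20 and 1.40 FPKM and measured 0.0757, 0.102 and 0.164 with NVP-2.

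Genes of translation kept unequal levels. The 83 cytosolic ribosomal protein genes, all called lower, kept a median of 29.2%. RPS27, the most abundant of them, measured 9933, 12587 and 12578 FPKM in DMSO and 4193, 4770.2 and 4019.9 with NVP-2 (37.0%). Their distance from the median gene was 1.27 on the log2 scale by the median ratio but 0.01 by quantile normalization, so its size rests on the scaling. RPL21 measured 379.6, 227 and 631 FPKM in DMSO and 237, 178 and 200.5 with NVP-2, so the groups overlap, and with many near-identical copies its level is uncertain. The 59 translation initiation and elongation factors, all called lower, kept only 10.2% at the median and lay below the median gene under all 4 scalings. EEF1A1, the elongation factor that brings tRNAs to the ribosome, kept the most of them, 27.9%.

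Protein genes of the mitochondrial ribosome kept less than those of the cytosolic one. Its 75 nuclear-encoded protein genes kept a median of 5.40%, and 56 of them were called below the median gene and 12 above it. MRPL51 measured 627, 782 and 747 FPKM in DMSO and 66.0, 84.8 and 67.6 with NVP-2 (10.1%), and MRPL33 kept 27.8%, the most of this list. Genes of ribosome biogenesis, many of them targets of MYC, kept 5.26% at the median, with 39 of 46 called below the median gene. BRIX1, needed to assemble the large ribosomal subunit, measured 185, 197 and 213 FPKM in DMSO and 0.794, 0.799 and 0.751 with NVP-2, or 0.394%. NPM1, the abundant nucleolar chaperone, kept 11.6%. NXT1, a cofactor of mRNA export outside this list, measured 129, 142 and 144 and 0.251, 0.257 and 0.251 FPKM (0.183%), among the deepest falls of all genes.

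Shares of the summed FPKM of a library do not depend on the scale between libraries, and were compared for 6 gene classes. Cytosolic ribosomal protein genes took 10.6% ± 0.739 of the sum in DMSO and 16.6% ± 0.569 with NVP-2 (SD, n = 3). Mitochondrial ribosomal protein genes took 0.361% ± 0.0189 and 0.156% ± 0.00256, and ribosome biogenesis genes 0.396% ± 0.0236 and 0.193% ± 0.00574. Respiratory chain genes took 1.45% ± 0.0804 and 2.11% ± 0.0559, and heat shock genes 0.468% ± 0.0258 and 0.239% ± 0.00629. For each of the 6 classes the groups did not overlap, and the exact two-sided permutation p was 0.1, also after Benjamini-Hochberg adjustment, the smallest that 3 against 3 allows. Between 51.0% and 59.7% of the sum in the 6 libraries came from the entries of 2 copies of 1 short microRNA gene, so shares were also taken without short RNAs and unnamed loci. Cytosolic ribosomal protein genes then took 26.8% ± 0.740 in DMSO and 39.1% ± 0.574 with NVP-2.

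Energy metabolism held messages with much and with little left. Nuclear-encoded respiratory chain genes, 89 tested and all called lower, kept 22.8% at the median and lay above the median gene under all 4 scalings. The list was matched by name and also holds complex I assembly factors and 1 pseudogene. ATP5E, a small subunit of the ATP synthase stalk, measured 3359.9, 3811 and 3839 FPKM in DMSO and 1520.4, 1844 and 1523 with NVP-2 (44.4%). UQCRFS1, the Rieske iron-sulphur protein of complex III, kept 2.35% of 291 ± 28.1 FPKM.

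Glycolysis had the same division within a single pathway. GAPDH, often used as a reference gene, measured 8463, 11318 and 10924 FPKM in DMSO and 2593, 3015 and 2467 with NVP-2 (26.3%). PFKL, a phosphofructokinase, kept 34.2%. LDHA, which turns pyruvate to lactate, measured 1325, 1616 and 1657 and 17.2, 20.3 and 17.6 FPKM, so 1.20% was left, and the glucose transporter SLC2A1, which is named outside the rule for genes, kept 0.680%. In sterol synthesis, SQLE, a rate-controlling epoxidase, kept 0.699% of 95.6 ± 6.79 FPKM, and LSS, the cyclase that follows it, 36.6% of 55.0 ± 5.60 FPKM. ACTB, another common reference gene, kept 12.5%, and TMSB4X, which binds actin monomers, 34.9%.

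Of the long non-coding RNAs and small nucleolar RNA hosts, all 23 tested were called lower. MALAT1, a stable nuclear RNA, kept the most. It measured 18.2, 19.5 and 20.9 FPKM in DMSO and 12.8, 14.7 and 13.8 with NVP-2 (70.4%; limma adjusted p = 0.025), and 4 of the 12 fits that leave out 1 library lost this call. SNHG8, the most abundant of them in DMSO, kept 25.2%.

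Only 51 of the tested genes were called higher with NVP-2. Of these, 23 were short RNAs (small nucleolar, small Cajal body, spliceosomal and microRNA genes), 16 were replication-dependent histone genes, 2 were unnamed loci and 10 were others. Many of the 51 averaged under 1 FPKM in DMSO, among them SNORD45A, TERC and APOE (0.236, 0.218 and 0.765 FPKM). Such genes were tested only where drug-treated libraries were higher, so the filter itself favoured their rises. With no filter on low values 64 of 23619 genes (0.271%) were called higher. Replication-dependent histone genes make histones in S phase from messages that normally end in a stem-loop and carry no poly(A) tail, and the libraries were selected for poly(A). Their levels were low in DMSO, with a median of 2.30 FPKM over the 55 tested. The 55 stood at a median of 100.3% of DMSO, and 16 were called higher, 14 lower and 25 neither. The list has 71 members in all, and the filter averages the 12 libraries, drug-treated ones included. Genes under 1 FPKM in DMSO, such as HIST1H3G (mean 0.714 FPKM), therefore entered only where drug-treated levels were higher. That raises the median and the share of rises among those tested.

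The promoters of the linker histone gene HIST1H1B (now H1-5) and the histone H3 gene HIST1H3G (now H3C8) are shown because both genes rose and both carry the CCAAT element found in many histone promoters. They are RefSeq sequences of GRCh38.p14 from 250 bases before the start site to 50 after it, written along the gene's own minus strand, HIST1H1B at chr6:27867539-27867838 and HIST1H3G at chr6:26271364-26271663. Capitals mark CCAAT on either strand, and neither promoter holds TATAAA, the other motif searched. The search took exact letters, so the related tatataag, present in both sequences, is not counted. No motif begins at the same distance from the start site in both promoters, but the nearest ones begin 53 and 52 bases before it and so overlap in position.
HIST1H1B: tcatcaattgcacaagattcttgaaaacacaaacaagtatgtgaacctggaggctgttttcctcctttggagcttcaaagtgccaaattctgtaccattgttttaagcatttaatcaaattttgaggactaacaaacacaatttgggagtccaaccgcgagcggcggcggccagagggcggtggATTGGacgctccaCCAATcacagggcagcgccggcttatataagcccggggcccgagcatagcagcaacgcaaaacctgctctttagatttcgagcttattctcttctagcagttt
HIST1H3G: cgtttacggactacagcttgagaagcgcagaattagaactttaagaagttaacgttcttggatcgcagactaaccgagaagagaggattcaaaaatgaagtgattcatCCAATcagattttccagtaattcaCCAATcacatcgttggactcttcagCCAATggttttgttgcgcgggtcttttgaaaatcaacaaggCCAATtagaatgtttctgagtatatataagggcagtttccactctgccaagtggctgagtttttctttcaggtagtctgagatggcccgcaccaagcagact
In HIST1H1B the element starts 53 bases before the start site, and on the other strand 66 bases before it. In HIST1H3G it occurs 4 times, at 142, 118, 93 and 52 bases before the start site. Over all 27305 promoters of the same length, 35.7% hold CCAAT on either strand and 11.95% TATAAA. Of the 44 tested histone genes with a promoter in the table, 84.1% hold CCAAT and 61.4% TATAAA. Of the 13 of 16 histone genes called higher that have one, 84.6% hold CCAAT and 61.5% TATAAA, shares close to those of all tested histone genes.

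HIST1H1B measured 0.933, 1.67 and 1.69 FPKM in DMSO and 7.33, 8.60 and 7.13 with NVP-2. Every NVP-2 library was higher than every DMSO library, and the limma difference was 1.85 ± 0.24 (SE, log2, adjusted p = 2.0e-06). HIST1H3G measured 0.221, 1.14 and 0.781 and 3.65, 5.65 and 5.24 FPKM (difference 1.79 ± 0.30, limma adjusted p = 3.3e-05). HIST2H3D, another H3 gene, measured 0.770, 0.679 and 1.36 and 5.29, 6.55 and 5.38 FPKM, and HIST1H4C, an H4 gene, 2.46, 2.94 and 0.237 and 5.78, 9.99 and 6.67 FPKM. The DMSO values of these 4 genes are under 3 FPKM, and those of HIST1H3G and HIST1H4C vary several-fold between libraries. HIST1H2BK, which kept the least of the list, fell from 36.0, 42.1 and 42.6 to 6.80, 8.78 and 6.40 FPKM. Histone genes are near-identical copies, so reads can be shared among them. Summed, the histone genes took 0.0129% ± 0.000882 of the summed FPKM in DMSO and 0.0467% ± 0.00131 with NVP-2. With no filter on low values the shares were 0.0130% and 0.0477%.

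Histone genes whose messages carry a poly(A) tail did not share this pattern: 9 of 10 were called lower and none higher. H2AFZ, the variant H2A.Z, measured 2119, 2382 and 2489 FPKM in DMSO and 295, 342 and 288 with NVP-2 (13.2%). H3F3A was the exception, with values of 11.1, 0.162 and 0.176 FPKM in DMSO and 8.72, 0.0695 and 3.58 with NVP-2 that differ by more within a group than between groups. SLBP, which binds the stem-loop of histone messages and is named outside the rule for genes, measured 299, 339 and 338 FPKM in DMSO and 7.30, 8.93 and 7.44 with NVP-2 (2.43%).

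**Figure D4:**
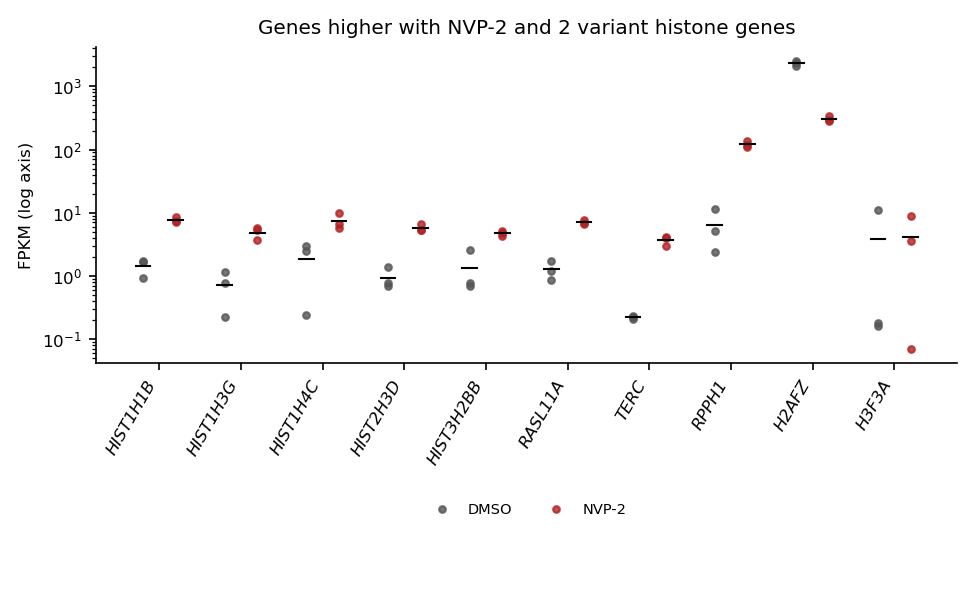
FPKM (log axis) of 8 genes called higher with NVP-2 and of the variant histone genes H2AFZ and H3F3A in the 3 DMSO (grey) and 3 NVP-2 (red) libraries, with group means as black bars. The groups do not overlap for the first 8 genes or for H2AFZ, which was lower with NVP-2. TERC lies between 0.204 and 0.229 FPKM in DMSO, close to the lowest values of the table.

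Among the other genes called higher, RASL11A, a small GTPase of the RAS family, was the protein-coding gene with the largest rise outside the histones. It measured 0.850, 1.72 and 1.21 FPKM in DMSO and 6.70, 7.68 and 6.83 with NVP-2 (difference 1.85 ± 0.19, SE, log2, limma adjusted p = 1.8e-07). RPPH1, the RNA of ribonuclease P, which RNA polymerase III makes, measured 5.19, 11.3 and 2.37 FPKM in DMSO and 117, 138 and 110.3 with NVP-2. TERC, the RNA template of telomerase, measured 0.222, 0.204 and 0.229 and 3.93, 4.09 and 2.96 FPKM. TERC in DMSO is close to the lowest values of the table, which are 0.101 to 0.104 FPKM in the DMSO and 0.0274 to 0.0327 FPKM in the NVP-2 libraries. No value is 0, so a level there cannot be told from no reads, and no fold is given for TERC. The rest of the 10, named after their values were seen, are APOE, BCYRN1, CKLF-CMTM1, CNTD2, GNRH2, LRCOL1 and GPR17, all under 10 FPKM in every DMSO and NVP-2 library. TERC, APOE, CKLF-CMTM1, CNTD2 and LRCOL1 averaged under 1 FPKM in DMSO, so they passed the filter only through drug-treated libraries.

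Short RNAs need the same care, because a read or a few of them give a short entry a large FPKM. SNORD45A measured 0.228, 0.230 and 0.250 FPKM in DMSO and 470.1, 419.8 and 128 with NVP-2. SNORA76, named outside the rule for genes, measured 0.234, 32.5 and 0.249 FPKM in DMSO, a spread within 1 group as wide as most changes. Of 150 tested small nucleolar RNAs 11 were called higher and 57 lower, and of 23 small Cajal body, spliceosomal and polymerase III RNAs 11 and 3. Of 92 microRNA genes 3 were called higher and 20 lower. Over all tested genes 0.448% were called higher and 97.1% lower. Short entries under 1 FPKM in DMSO were tested only where drug-treated libraries were higher, which raises the share of rises in these counts.

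The mature products of 2 microRNA entries are shown because those entries hold the largest upward limma difference from DMSO and the largest values of the table. They are RefSeq sequences of GRCh38.p14, at chr20:26208243-26208264 on the minus strand (MIR663A) and chr5:118974640-118974665 on the plus strand (the copy MIR1244-2), with the seed (bases 2 to 8) in capitals, and they share no seed.
hsa-miR-663a: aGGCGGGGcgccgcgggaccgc
hsa-miR-1244: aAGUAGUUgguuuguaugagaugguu
The libraries were selected for poly(A) and did not measure mature microRNAs, so the values belong to reads over the genes' entries. MIR663A measured 0.228, 693 and 349 FPKM in DMSO and 21524, 31029.6 and 11041 with NVP-2. Its limma difference was the largest upward one on the deposited scale (8.19 ± 1.58, SE, log2, adjusted p = 1.4e-04). The size of that difference rests on the 1 DMSO value of 0.228 FPKM, which is near the lowest values of the table. By the ratio of group means SNORD45A rose more. MIR1244-2 went from a mean of 936079 to 169203 FPKM, or 18.1%. Another copy, MIR1244-3, at a different place in the genome, measured 908627, 1007750.0 and 894540.0 FPKM in DMSO and 150193, 194580.0 and 163580.0 with NVP-2, or 18.1%. The copies have nearly the same values, reads can be shared between them, and they are not independent examples.

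NVP-2 was also compared directly with each of the other compounds at the same dose and time, which makes 2 pairs, with p-values adjusted over the tested genes within each. Against THAL-SNS-032, 7968 genes (70%) were lower with NVP-2 and 113 (0.993%) higher, with a median difference of -0.64 on the log2 scale. Against SNS-032, 5989 genes (52.6%) were lower and 89 (0.782%) higher, with a median difference of -0.48. The median gene stood at 21.0% to 24.2% of DMSO in the THAL-SNS-032 libraries and at 14.8%, 26.9% and 24.6% in the SNS-032 libraries, where the first replicate stood apart. Without that library 9290 genes were lower and 86 higher with NVP-2 than with SNS-032, and, through the shared spread, 9162 were lower and 232 higher than with THAL-SNS-032. Without the second NVP-2 library 74 were higher than with THAL-SNS-032 and 56 than with SNS-032, and without the third THAL-SNS-032 library 75 were higher than with THAL-SNS-032.

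The genes that parted NVP-2 from SNS-032 most had kept much of their message with SNS-032. CXCR4 measured 6.46, 7.44 and 6.24 FPKM with NVP-2 and 233, 403 and 388 with SNS-032, against 427, 506 and 519 in DMSO and 50.6, 61.4 and 51.8 with THAL-SNS-032. The difference between NVP-2 and SNS-032 was -5.43 ± 0.21 (SE, log2, 95% interval -5.87 to -4.99, limma adjusted p = 5.6e-10). YTHDF1, a reader of methylated adenosines in mRNA, measured 2.53, 3.49 and 2.85 FPKM with NVP-2, 73.8, 131 and 123 with SNS-032 and 103, 116 and 121 in DMSO. NXT1 measured 30.7, 71.2 and 46.8 FPKM with SNS-032 and 3.74, 5.04 and 4.11 with THAL-SNS-032, and C12orf44, a component of the autophagy initiation kinase, 0.157, 0.182 and 0.165 with NVP-2 and 26.1, 50.5 and 43.1 with SNS-032. For each of these 4 genes every NVP-2 library lay below every library of the other 3 groups.

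CDK9 itself was lower with NVP-2 than with THAL-SNS-032 (-1.04, 95% interval -1.45 to -0.64) and SNS-032 (-1.07, 95% interval -1.47 to -0.66). CCNT1 measured 14.6, 27.2 and 23.2 FPKM with SNS-032, near its DMSO level, and 4.78, 5.33 and 4.42 with THAL-SNS-032.

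MYC and MCL1 followed the same order of groups. MYC measured 12.9, 17.0 and 13.8 FPKM with THAL-SNS-032 and 100.1, 169.9 and 166 with SNS-032, and the NVP-2 difference was -1.01 (95% interval -1.44 to -0.57, limma adjusted p = 8.3e-04) and -4.21 (interval -4.65 to -3.77, adjusted p = 1.9e-09). MCL1 measured 18.0, 20.5 and 19.3 FPKM with THAL-SNS-032 and 31.9, 60.6 and 53.2 with SNS-032, all above the NVP-2 values. HEXIM1 gave no call against THAL-SNS-032 (95% interval -0.72 to 0.03, adjusted p = 0.087 by limma) or SNS-032 (interval -0.28 to 0.47). Without the first SNS-032 library it was called lower than with THAL-SNS-032 (limma adjusted p = 0.0013). MEPCE was higher with NVP-2 than with both (0.76 and 0.55, limma adjusted p = 0.0026 and 0.022), but without the first, the second or the third NVP-2 library the call against SNS-032 was lost (limma adjusted p = 0.051, 0.067 and 0.053).

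**Figure D5:**
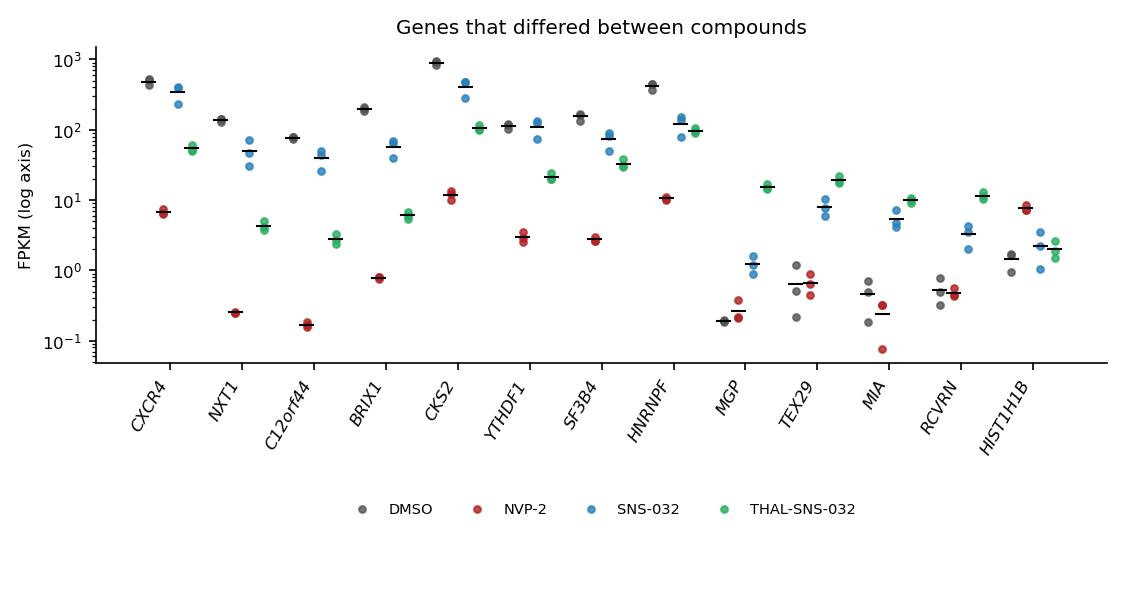
FPKM (log axis) in the 3 libraries of each of the 4 groups for genes with the largest differences between NVP-2 and another compound, with group means as black bars. CXCR4, NXT1, C12orf44, BRIX1, CKS2 and YTHDF1 were lowest with NVP-2, while MGP, TEX29, MIA and RCVRN were near their DMSO level with NVP-2 and higher with THAL-SNS-032.

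Against THAL-SNS-032 the largest gaps were of another kind. MGP, an inhibitor of tissue calcification, measured 0.192, 0.183 and 0.197 FPKM in DMSO, 0.377, 0.212 and 0.216 with NVP-2, 0.885, 1.62 and 1.21 with SNS-032 and 14.5, 16.8 and 14.7 with THAL-SNS-032. TEX29, MIA and RCVRN, the retinal calcium sensor recoverin, had the same order: low in DMSO, low with NVP-2, intermediate with SNS-032 and highest with THAL-SNS-032. Their DMSO and NVP-2 levels are under 2 FPKM and partly near the lowest values of the table. RCVRN measured 0.429, 0.563 and 0.439 FPKM with NVP-2 and 11.5, 13.0 and 10.3 with THAL-SNS-032 (difference -3.09 ± 0.18, limma adjusted p = 6.0e-08). None of the 4 was called different between NVP-2 and DMSO (adjusted p = 0.52 for MGP, 0.82 for TEX29, 0.24 for MIA and 0.82 for RCVRN). SF3B4, a splicing factor, and HNRNPF, an RNA-binding regulator of splicing, followed the order of most genes, with 2.63, 3.01 and 2.63 and 10.5, 11.1 and 10.1 FPKM with NVP-2 against 29.8, 38.2 and 31.1 and 89.2, 104 and 95.6 with THAL-SNS-032.

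Genes higher with NVP-2 than with the other compounds were few. Short RNAs had the largest differences: SNORD116-15, named after its values were seen, measured 49.2, 44.4 and 84.7 FPKM with NVP-2 and 0.114 or less in every SNS-032 and THAL-SNS-032 library, near the lowest values of the table. SNORD116-15 averaged 0.143 FPKM in DMSO, so it passed the filter only through its NVP-2 libraries. That it was higher there follows from how it entered the test. With short RNAs and unnamed loci set aside, HIST1H1B had the largest difference from both compounds. HIST1H1B measured 1.03, 3.51 and 2.19 FPKM with SNS-032 and 1.88, 2.59 and 1.49 with THAL-SNS-032, all below its NVP-2 values. The differences were 1.49 and 1.55 (limma adjusted p = 1.1e-04 and 1.3e-04). Of the 55 tested histone genes 15 were higher with NVP-2 than with THAL-SNS-032 and 7 lower, and 10 were higher than with SNS-032 and 7 lower. Over all tested genes 0.993% were higher and 70% lower than with THAL-SNS-032, and 0.782% and 52.6% than with SNS-032. Some histone genes, such as HIST1H2AD (mean 0.383 FPKM in DMSO), passed the filter only with the help of their NVP-2 values. That raises the number called higher. C20orf112 measured 4.36, 4.88 and 4.96 FPKM with NVP-2 and 1.22, 2.07 and 2.53 with SNS-032, and KLHL17 3.22, 3.17 and 3.12 with NVP-2 and 0.887, 1.32 and 1.16 with THAL-SNS-032. Both were lower with NVP-2 than in DMSO, at 14.6, 14.8 and 16.9 and 11.1, 13.9 and 14.4 FPKM.

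The other lists followed the shift of all genes to differing degrees, and their counts are read against the 70% of all tested genes called lower than with THAL-SNS-032 and the 52.6% called lower than with SNS-032. The G2/M and mitosis genes had a median difference of -1.20 from THAL-SNS-032 and -1.48 from SNS-032, with 32 and 29 of 34 called lower. For p53 target genes the medians were -0.60 and -1.46, with 16 and 23 of 25 lower, so against THAL-SNS-032 they were close to all genes. For cytosolic ribosomal proteins they were -1.0005 and -0.76, and 83 and 79 of 83 were lower. The GIMAP genes gave -1.39 and -1.74, with 6 and 6 of 7 lower, and 1 was called higher with NVP-2 than with SNS-032. Both comparisons share the NVP-2 libraries and are not independent.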

How the data were processed

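RNA of 12 libraries of MOLT4 cells was measured, per the labels with ERCC spike-ins added at lysis, poly(A) selection and stranded libraries. Per the submitters' processing notes the authors used HISAT, Cufflinks 2.0.0 and hg19. The annotation and the step that set the scale are not given in the sources used here. The authors deposited FPKM per gene, without counts, in 1 table of 23713 entries. Here 92 ERCC entries and 2 repeated names were left out, which left 23619 genes, and 4201 of these share 1 value per library, between 0.091 and 0.104. For 26 genes the name had become a date.

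The 11379 genes that averaged at least 1 FPKM across the 12 libraries entered limma 3.58.1 (R 4.3.3) with trend on log2(FPKM + 1), in 1 fit of the 4 groups with 8 residual degrees of freedom, two-sided, with Benjamini-Hochberg adjustment over all tested genes and a threshold of 0.05. For the median-centred scale each library's FPKM was multiplied by 1 factor before the pseudocount of 1, because a median subtracted from log2(FPKM + 1) lifts low genes that had fallen. Library measures and shares were compared by exact two-sided permutation. The fit was tested on simulated data. Gene lists were described by counts and medians, with no test of a list.

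The comparison, the members and the gene lists were chosen with earlier results of these data known. Genes were named by a rule: the 15 largest falls and rises on the deposited scale and the 10 on the centred scale with no overlap between libraries (neither short RNAs nor unnamed loci), the highest, most and least changed member of each list, a set of 17 genes that included CDK9, MYC and MCL1, and the 6 largest differences each way from each other compound. The genes printed were picked from these after their values were seen, and 1 named gene is not reported here.

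Alternatives were pseudocounts of 0.1 and 5, omitting the filter on low values, a filter at 5 FPKM, limma with trend off, limma with robust on, fits of just 6 libraries, the replicate number as a block, each library left out, equal ERCC medians, other scalings, sums without the 10 highest genes and, chosen after seeing the data, short RNAs and unnamed loci left out. Promoters and microRNAs were matched to RefSeq tables by symbol. Plots were made in Python 3.11.15 with matplotlib 3.10.9.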

Additional observations from a re-analysis of the deposited data

How the results depend on the processing

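Of 250 recomputed counts, library measures and shares, 231 stayed close to the reported value. Close is a loose term for the counts: 4553 genes lower than with SNS-032 without its second library still passed, against 5989. A count has no direction to change, and no library measure or share changed direction. With no filter on low values, 19550 genes were lower than in DMSO, 10615 were below and 10209 above the median gene on the centred scale, and the median log2 ratio was -1.75, because genes near the lowest values enter. With a mean of 5 FPKM or more, 21 genes were higher than in DMSO, 51 higher than with THAL-SNS-032 and 59 higher than with SNS-032, with fewer genes tested. With the median of log2(FPKM + 1) subtracted, 3198 genes were called lower, which is not a count below the median gene, because the median of all genes was then 0.42. Genes higher than with THAL-SNS-032 numbered 73 with a pseudocount of 5 and 281 with only the 6 libraries, and the cause was not tested.

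With short RNAs and unnamed loci left out, the ratio of the NVP-2 to the DMSO share was 1.36 for respiratory chain, 0.404 for mitochondrial ribosomal, 0.454 for ribosome biogenesis and 0.475 for heat shock genes. Leaving out each library in turn gave 11025 to 11063 genes lower and 47 to 54 higher than in DMSO, and 4736 to 4862 below and 4695 to 4839 above the median gene. It gave 6561 to 9162 lower and 74 to 232 higher than with THAL-SNS-032, and 4553 to 9290 lower and 56 to 128 higher than with SNS-032.

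Same-numbered DMSO and NVP-2 libraries did not deviate together (correlations of -0.087, 0.053 and -0.011). With 3 libraries a group this cannot settle whether the numbers pair them. The first replicate had the lowest median ratio to DMSO in every group. With the replicate block 11058 genes were lower and 54 higher than in DMSO, 4809 below and 4783 above the median gene, 8322 lower and 130 higher than with THAL-SNS-032, and 6693 lower and 123 higher than with SNS-032.

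Among the named genes 12 values changed sign. TEX29 and RCVRN, not called against DMSO, ranged from -0.14 to 0.28 and from -0.14 to 0.071 when each library was left out, with -0.05 for TEX29 without the third NVP-2 library. HEXIM1 ranged from -0.12 to 0.21 against SNS-032, the lowest without the first SNS-032 library. H3F3A, not called, ranged from -0.20 to 1.63 when each library was left out, with -0.06 and -0.05 without the second or the third DMSO library. With short RNAs and unnamed loci left out limma called it (adjusted p = 2.2e-04), although its groups overlap. GAPDH on the centred scale gave -0.17 with no filter and -0.33 by quantile normalization. CDK9 on the centred scale gave 0.27, 0.14 and 0.18 with equal library medians, subtracted medians and quantile normalization and -1.28 with no filter, all 4 called by limma (adjusted p = 3.9e-04, 0.020, 0.0064 and 4.4e-09). RPL21 lost its call in 5 settings and MALAT1 in 4, and HHEX was called with only the 6 libraries, as was HEXIM1 against THAL-SNS-032, which was also called with the replicate block (limma adjusted p = 0.046). MEPCE lost its call against SNS-032 with only the 6 libraries, and MIR1244-3 its call against DMSO with no filter on low values (limma adjusted p = 0.12). Depth is unknown, so its part in any value was not tested.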

Other observations

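Splicing, decay and protein turnover held wide differences within each machine, although every tested member was lower than in DMSO. Of 33 SR and hnRNP splicing regulators, HNRNPH1 kept 28.1% of 1103 FPKM and HNRNPF 2.51% of 421 FPKM, and the list's side of the median gene flips with the scaling. Of 38 RNA decay genes, with a median of 9.57% left, EXOSC4 of the exosome kept 0.957% and LSM4 of the decapping ring 39.6%. Proteasome subunits, 42 tested, kept 10.3% at the median, from 2.78% for the deubiquitinase PSMD14 to 37.8% for the activator PSME1. The Integrator complex, which ends short transcripts, ran from 1.27% for INTS5 to 34.8% for INTS1. BRD2, a reader of acetylated histones, measured 164, 207 and 215 FPKM in DMSO and 6.89, 8.42 and 7.60 with NVP-2 (3.91%), while the deacetylase gene HDAC1 kept 38.9%.

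Antigen presentation genes lay above and zinc finger genes below the median gene under all 4 scalings. HLA class I and peptide loading genes kept 20.7% at the median over 15 genes. B2M, the shared light chain, measured 2392, 2805 and 2864 FPKM in DMSO and 893, 1061 and 885 with NVP-2 (35.2%), whereas the loading chaperone CALR kept 3.74% of 1610.5 FPKM. The 391 ZNF-named genes, many of them repressors, kept 7.21%, with 260 called below and 64 above the median gene on the median-centred scale. With the median of log2(FPKM + 1) subtracted the calls turned to 114 lower and 219 higher, and the list lay at -0.10 from the median gene. RELA, the main activating subunit of NF-kB, measured 54.3, 57.2 and 62.4 FPKM in DMSO and 1.72, 1.45 and 1.41 with NVP-2 (2.63%). Among 25 p53 targets, all called lower with a median of 7.69% left, BAX kept 21.5% of 159 FPKM.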
